A study of Arabidopsis thaliana with 6 samples.

Results

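RNA that stayed on anti-FLAG beads in plants without a FLAG tag was described and set against the abundance of the same transcripts in unprecipitated RNA. The series profiled RNA crosslinked to ECT2, a YTH-domain protein that binds N6-methyladenosine, in Arabidopsis thaliana seedlings of 14 days (16 h light and 8 h dark, 22 °C). All plants were of the Col-0 background and were crosslinked with formaldehyde. The 2 mock libraries came from wild-type plants, whose extract was put on ANTI-FLAG M2 magnetic beads. The 2 input libraries held RNA without any antibody from ect2 plants (T-DNA line SALK_002225) that carried the transgene ECT2:ETC2-Flag, as the label spells it, and the 2 FA-CLIP libraries were precipitated from such plants with the same beads. Mock and input therefore differed in genotype as well as in precipitation. They also differed in library kit, a small RNA kit for both kinds of precipitate and an RNA kit for the input, and these differences cannot be told apart. The label names ECT2 in the transgene without naming a promoter or the number of lines, and nothing in the labels says that replicates came from separate cultures. The members were every site of the mock lists and every locus they name, on all chromosomes. The mock libraries listed 3440 and 3848 sites, which fell in 1394 and 1511 loci, 1882 in either library and 1023 in both, against 33543 loci in the input tables. For each locus the conversion events of its distinct sites were summed and set against the mean input level in FPKM, a level scaled to transcript length and library size.

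A mock precipitation measures the background of an immunoprecipitation. RNA can adhere to beads or antibody, or come down with abundant complexes, whether or not the bait carries its tag. Ribosomes, spliceosomal and nucleolar particles and the Argonaute complexes that hold microRNAs are abundant ribonucleoproteins, and short, structured or protein-covered RNAs often remain where other RNA has been digested. Background of this kind is usually weighed against abundance, since an abundant transcript can appear by carry-over alone.

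Most mock events lay in short stretches of a few structural and small RNAs. Below are sequences of some of these and of sites in protein-coding genes. Those of ribosomal RNA, which held 48.8% and 54.65% of mock events, are not printed. The microRNAs are given first, with the seed (bases 2 to 8) in capitals, from RefSeq annotation of the TAIR10.1 assembly, whose nuclear coordinates are those of TAIR10. They lie on the plus strand at chr5:4691107-4691127, chr5:4694778-4694798, chr2:1041012-1041032 and chr1:6220813-6220833. The miR398 sequences share a seed, and miR398b and miR398c are identical.
ath-miR398b-3p: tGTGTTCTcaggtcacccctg
ath-miR398c-3p: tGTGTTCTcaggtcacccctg
ath-miR398a-3p: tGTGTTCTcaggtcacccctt
ath-miR159b-3p: tTTGGATTgaagggagctctt
The site with the most microRNA events in mock 2 began at base 10 of miR398b and ran past its end (chr5:4691116-4691129, plus strand).
MIR398b site: aggtcacccctgct
A stretch of 29 nt inside tRNA-Glu, here as it lies at chr5:18543000-18543028 on the minus strand, occurs 11 times in the nuclear and chloroplast genomes.
tRNA-Glu stretch: atatctggctttcacccaggagacccggg
The next pair shows a site listed under a protein-coding gene, PRIN2 (chr1:3469829-3469845, plus strand), beside the mock 2 site of the U3D small nucleolar RNA (chr5:21945385-21945401, minus strand), with the same letters.
PRIN2 site: gtctgacaggttctttt
U3D site: gtctgacaggttctttt
The last are sites of 12 and 11 nt in 2 other protein-coding genes, AT1G77030 (chr1:28948786-28948797, minus strand) and AT2G39850 (chr2:16631457-16631467, plus strand). Neither shares a run of at least 18 identical bases with an annotated structural RNA, and the longest for AT2G39850, flanks included, was 14.
AT1G77030 site: gattgtaggttg
AT2G39850 site: tctgagctctt

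The mock lists held 489805 events in mock 1 and 653262 in mock 2. A listed site has at least 2 events, so a locus missing from a list was not listed and is not shown to be unbound. The median site was 24 nt wide with 5 events. Events are not scaled to length or library size, and the depth of the input libraries is unknown. Of mock 1 sites, 67.5% (95% Wilson interval 65.9 to 69.02, for counting error only) overlapped a mock 2 site by at least 1 nt, and 61.04% (59.5 to 62.6) of mock 2 sites overlapped one of mock 1. Across the 1023 loci listed by both, events had a Spearman correlation of 0.91 over loci, which are not independent replicates. The 859 loci listed by a single library had a median of 2 events. The highest of them, AT4G16155, a dihydrolipoamide dehydrogenase, had 597 in mock 1. The input tables ranked loci alike, with a Spearman correlation of 0.99 over 24172 loci. A few loci differed widely between them, with input 2 over input 1 at 11.2-fold for PSBA and 2.51-fold for AT2G01021. The input showed the green tissue of a seedling, with RBCS1A at 5371 and 5560 FPKM. Of the genes taken as root markers, AGP31, at 83.5 and 94.5 FPKM, and TIP2;3, at 5.16 and 5.14 FPKM, were also present. The markers PRX72 and COBL9 were not found by symbol, so their levels are not given. In whole seedlings, fewer cells of a type and less RNA per cell cannot be told apart. ECT2 itself had 72.2 and 74.9 FPKM in the input and was in neither mock list, against 86 and 78 events in FA-CLIP. Input and FA-CLIP plants carried the ECT2 transgene, and the ECT2 level of the wild-type mock plants was not measured.

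Mock events were concentrated in a small number of loci. The 10 loci with the most events held 60.6% of mock 1 and 65.4% of mock 2, and the top 100 held 90.4% and 91.3%. The median listed locus had 7 events in each library. A locus that merely appears in the mock list thus differs from the leading loci by orders of magnitude in its events.

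RNA classes took very different shares of mock events and of input. Nuclear ribosomal RNA held 35.1% and 39.9% of the events in mock 1 and mock 2. MicroRNA loci held 17.5% and 16.7%. The chloroplast genome held 16.7% and 17.4%, of which chloroplast ribosomal RNA alone was 12.7% and 13.4%. Nuclear transfer RNA held 13.9% and 11.2%. Small nucleolar and small nuclear RNA together held 6.06% and 5.02%. Nuclear protein-coding loci held 6.23% and 5.56% of events, although they made up 43.98% and 48.2% of the sites. The libraries differed most for nuclear ribosomal RNA. The same protein-coding loci made up 82.8% and 89.4% of the summed input FPKM, and 74.2% and 75.2% after leaving out AT2G01021. Transfer RNA was 0.354% and 0.187% of input FPKM and microRNA loci were 0.0788% and 0.0503%. The input tables had no row for the ribosomal RNA loci, so no input level can be set beside them. Shares of events and shares of FPKM are different units and were not tested against each other.

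**Figure D1:**
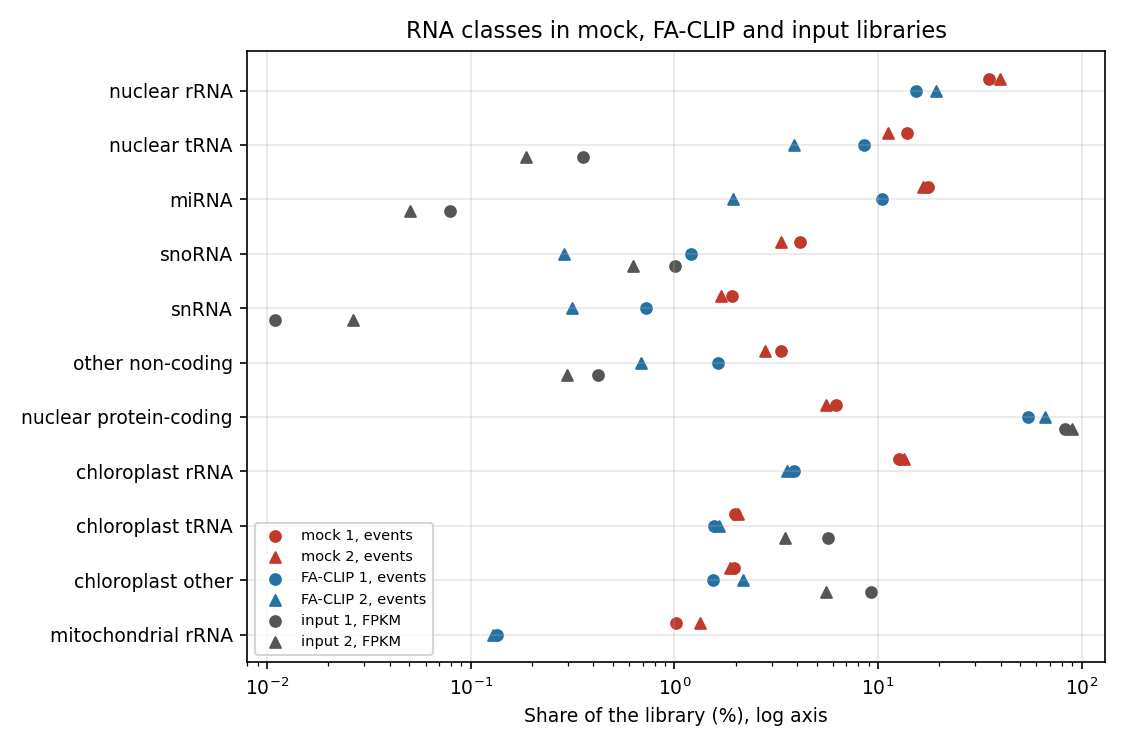
Share of each library by RNA class, in percent of conversion events for mock (red) and FA-CLIP (blue) and in percent of summed FPKM for input (grey), on a log axis, with circles for replicate 1 and triangles for replicate 2. MicroRNA loci held 17.5% and 16.7% of mock events but under 0.1% of input FPKM, and nuclear protein-coding loci held 6.23% and 5.56% of mock events; classes without grey points have no input rows.

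Set against FA-CLIP, which shares the unit, the mock had higher shares of every class above except protein-coding RNA. Nuclear ribosomal RNA was 37.5% ± 3.41 (SD, n = 2) of mock and 17.3% ± 2.64 (SD, n = 2) of FA-CLIP events. MicroRNA was 17.1% ± 0.634 in the mock and 10.5% and 1.95% in the FA-CLIP replicates, which differed from each other more than the mock replicates did. Protein-coding loci were 5.895% ± 0.471 in the mock and 60.3% ± 8.05 in FA-CLIP (n = 2 each). Groups did not overlap in any of the 5 classes tested, and the exact two-sided permutation test gave p = 0.33 for each, the smallest that 2 against 2 libraries allow. Shares sum to the same total, so the classes are not independent results.

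Ribosomal RNA, the scaffold of the ribosome, led the mock lists. The 5.8S ribosomal RNA AT3G41979 had 45164 events in mock 1 and 81252 in mock 2. AT2G01020, which RefSeq names 5S, is identical over 164 nt to AT3G41979 and had 44142 and 81513 events. The 18S loci AT3G41768 and AT2G01010, which differ at 2 of 1808 positions, had 53380 and 52306 events, and 29133 and 45575. Both copies of 5.8S were higher in mock 2 and AT3G41768 was not. How reads that match several copies were assigned is not given in the sources used here, so the split between copies is uncertain. In the chloroplast, the 16S copies ATCG01210 and ATCG00920 had 25626 and 32527 events, and 19461 and 31319. The 23S copies ATCG00950 and ATCG01180 had 7021 and 9692, and 6347 and 8729 events. The mitochondrial 18S locus ATMG01390 had 3871 and 6859 events, and in FA-CLIP 658 and 738. All 15 ribosomal RNA loci named in the lists, 4 nuclear, 8 chloroplast and 3 mitochondrial, were listed by both mock libraries.

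Transfer RNAs carry amino acids to the ribosome, and a single isotype supplied most of their events. tRNA-Glu held 64.4% and 60.1% of nuclear transfer RNA events, from 23 of its 24 loci, each listed by both libraries. tRNA-Gly held 15.1% and 14.2%, tRNA-Gln 11.1% and 12.5%, and tRNA-Asp 4.07% and 7.56%. The other isotypes each held at most 2.27% in either library, and tRNA-Val, with 3 of 30 loci listed, had 6 and 13 events. FA-CLIP gave tRNA-Glu a similar 61.4% and 53.2%. The tRNA-Glu locus AT1G09110 had 11875 and 12132 events. The next, AT4G37175, AT5G27715, AT1G20170 and AT5G66755, had between 6150 and 6374 in either library. The 29-nt stretch printed above lies in 11 listed loci, 9 of them transfer RNA loci, which together held 10.1% and 7.58% of all mock events. Nearly equal values at these loci are therefore not separate measurements of each. Of 623 nuclear transfer RNA loci in the input tables, 574 were listed at 0 in both inputs. The mock listed 336 loci, and 308 of them were at 0 in both inputs, so their events could not be related to input.

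MicroRNAs guide Argonaute proteins to complementary transcripts, and their mock sites overlapped the annotated mature arms. Sites with any overlap held 99.9% of microRNA events in each library, and those with at least 50% of their width on an arm 80.8% in mock 1 and 97.7% in mock 2. Sites wholly inside an arm held 0.79% and 1.90%. The MIR398 family, known for targeting transcripts of copper proteins, held 76.5% and 79.5% of microRNA events. MIR398c had 30967 and 40347 events, MIR398b 30356 and 40571, and MIR398a 4369 and 5576. In mock 1 the events of MIR398b and MIR398c were split between sites that begin before the arm, with 35.8% of all microRNA events, and one at base 10. In mock 2 nearly all lay in the site at base 10, which had 40565 events in MIR398b. Sites that began at bases 9 to 12 of an arm held 53% of arm events in mock 1 and 91.8% in mock 2. The MIR159 family, which targets MYB transcription factors, held 8.05% and 5.91%. MIR159b had 3711 and 3589 events and MIR159a had 2817 and 2496. MIR408, another copper-related microRNA, had 1906 and 2467 events, and MIR396b, whose family targets growth-regulating factors, 1408 and 1944. These families also led FA-CLIP, but at 62282 and 8339 events for MIR398 the FA-CLIP replicates were far apart. Of 178 microRNA loci in the input, 97 were listed by either mock and 80 by both. MIR398c stood at 0.547 and 0.592 FPKM in the input, and MIR398a and MIR398b were listed at 0. Whether the sites come from mature or precursor RNA was not tested. The input tables name the whole locus, and their RNA kit differs from the small RNA kit of the mock.

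**Figure D2:**
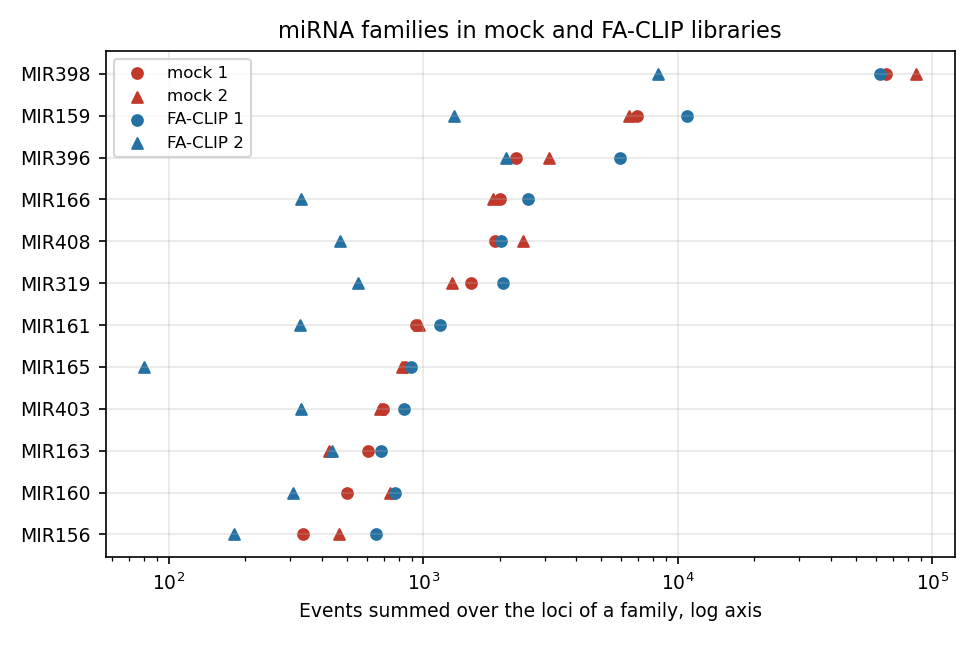
Conversion events summed over the loci of each microRNA family, on a log axis, for mock (red) and FA-CLIP (blue), circles for replicate 1 and triangles for replicate 2, for 12 families. MIR398 had 65692 and 86494 events in the mock and MIR159, the next, 6919 and 6428, and FA-CLIP replicate 2 lies below replicate 1 throughout.

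Small RNAs of the nucleolus and the spliceosome were listed almost completely. Of 71 small nucleolar RNA loci in the input, 67 were listed by both mock libraries, and of 13 small nuclear RNA loci, 12. U3 guides early cleavage of the ribosomal RNA precursor. Its loci U3D and U3B led the class with 1998 and 2708, and 1714 and 2573 events, at inputs of 8.42 and 19.2, and 2.096 and 5.04 FPKM. AT3G47347 had 1441 and 1370 events at a mean input of 992.1 FPKM. Loci of like events thus lay far apart in input. U2 pairs with the intron branch point, and U2.4, U2.7 and U2.3 had 2331 and 2454, 2129 and 2371, and 2069 and 1855 events, at mean inputs of 1.19, 1.096 and 2.099 FPKM. U1.5, which recognises the start of introns, had 810 and 1462 events at 75.8 and 294.5 FPKM.

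Non-coding and organelle transcripts added a few heavily listed loci. AT1G15405, annotated as other RNA, had 3561 and 3564 events, and AT3G61198 had 2385 and 2916. The precursors of trans-acting small interfering RNA TAS1A, TAS1C and TAS2 had 820 and 881, 626 and 580, and 569 and 586 events. In the chloroplast, PSBA, the D1 reaction centre protein of photosystem II, had 3725 and 4449 events, more than any other chloroplast transcript that is neither ribosomal nor transfer RNA. Its input differed widely between libraries, at 70.4 and 785.8 FPKM. PSBM, a small photosystem II subunit, had the highest chloroplast input, at 48608 FPKM on average, and 17 and 23 events. RBCL, the large subunit of Rubisco, had 286 and 496 events at 16.8 and 111.4 FPKM. Among 88 chloroplast loci that are neither ribosomal nor transfer RNA, 83 were listed by either mock, and events and input had a Spearman correlation of 0.06 over these loci. FPKM is scaled to length and events are not.

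Much of what was listed under nuclear protein-coding loci lay on structural RNA. Of the protein-coding events, 41.97% in mock 1 and 36.3% in mock 2 fell in sites inside an annotated structural RNA that shares the strand. Transfer RNA accounted for 21.3% and 17.7% and small nucleolar RNA for 20.3% and 18.04%. AT2G01021 alone held 15.5% and 27.6%. Sites that share at least 18 identical bases in a row, within 15 nt on each side, with a structural RNA elsewhere held 7.90% and 7.57%. The same search with the reverse complement of the sites found 0 and 3 sites. The remaining 1345 and 1670 sites are called unmatched below. They can still share a shorter run with a structural RNA, and 9.14% and 7.62% of their events were labelled intron. Of the protein-coding events they held 34.6% and 28.5%. In FA-CLIP the corresponding share was 95.96% and 98.9%. By number, unmatched sites were 88.9% and 90.1% of the protein-coding sites of the mock, with a median of 3 events.

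**Figure D3:**
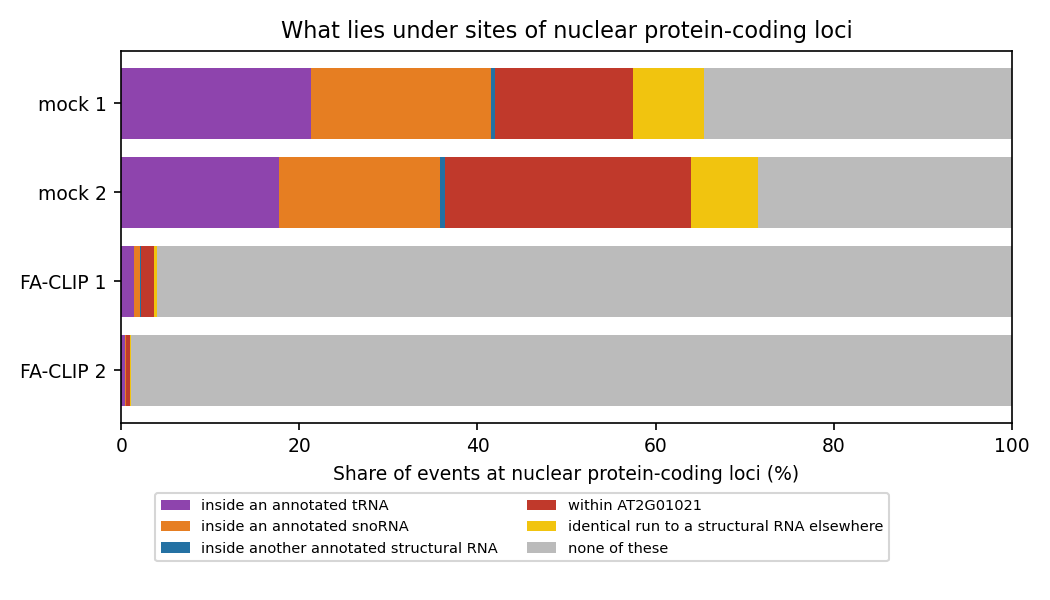
Share of the events at nuclear protein-coding loci, in percent, by what lies under the site, for each mock and FA-CLIP library. Unmatched sites (grey) held 34.6% and 28.5% in the mock and 95.96% and 98.9% in FA-CLIP.

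The protein-coding loci with the most mock events were mostly of this kind. AT2G01021, annotated as an uncharacterized protein at chr2:6571-6672, had 4741 and 10039 events. It lies after the 18S locus AT2G01010 and 625 nt after the end of AT2G01020, on the same strand. Its sites matched no annotated structural RNA, so it is counted apart, and whether its reads are ribosomal RNA was not tested. Its input of 276196 and 692690 FPKM was 33.4% and 57.5% of the summed FPKM. AT5G45720, an AAA-type ATPase, had 6283 and 6237 events at 0.454 and 0.554 FPKM, nearly all in the tRNA-Glu stretch printed above, which the lists label as 3' UTR and which lies in the tRNA-Glu locus AT5G45715. PRIN2, a plastid protein required for transcription by the plastid-encoded polymerase, had 1631 and 1986 events, of which 1479 and 1425 were in the 17-nt site shared with U3D. The ribosomal protein genes AT4G29410 (L28e) and AT4G17390 (L23/L15e) had 1399 and 1066, and 1001 and 1040 events, all in intronic small nucleolar RNAs. Such host genes numbered 35 in both libraries. Of these, 9 had a ribosomal product name, against 314 ribosomal protein genes by a narrower rule among 26705 protein-coding loci, and the count was not tested. The lists labelled 97 of 124 sites of this kind in mock 1 and 99 of 131 in mock 2 as intron. AT1G29465, AT2G35750 and AT5G65860 were further hosts, with 633 and 593, 537 and 793, and 416 and 464 events. AT3G20362 had 470 and 381 events, nearly all in a site that shares an identical run with a chloroplast tRNA-Glu.

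A few protein-coding loci had many events in unmatched sites, and at several of them a single very short site held all or most events. AT1G77030, a putative DEAD-box RNA helicase, had 801 and 444 events, all in the 12-nt site printed above. AT2G39850, a subtilisin-like protease, had 564 and 201 in its 11-nt site. NGA3, a transcription factor of leaf and style development, had 481 and 340 events in an 11-nt site labelled coding sequence, and 0 and 5 in FA-CLIP. With flanks, that site shares a run of 16 identical bases with an annotated structural RNA, under the 18 required. AT2G31141, AT3G06435 and AT1G31835, all uncharacterized, had 465 and 660, 436 and 527, and 375 and 543 events, those of AT1G31835 partly in a small nucleolar RNA. Most of those of AT2G31141 lay in a 14-nt site, with 415 and 547 events, while those of AT3G06435 were spread over several wider sites. Among unmatched sites, those of 12 nt or less were 7.81% and 5.81% of sites but held 37% and 18.01% of the events. The largest one at a locus listed by a single library, an 11-nt site of AT4G16155 with 597 events, was in mock 1, where the share was 33.2% without it. At that width a site can match several places in a genome, and where its reads came from was not tested. Outside the mitochondrial genome, sites whose central 25 bases, with flanks where the site is shorter, occur more than once made up 27.4% and 26.03% of all mock sites and held 68.5% and 78.8% of events.

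Over all loci, the correlation of mock events with input was low, and most loci had no listed event. Among 24172 loci with input above 0 in both libraries, 1307 of them listed by the mock, the Spearman correlation of mean events and mean FPKM was 0.26, and Pearson's r on log2 values (pseudocounts of 1 event and 0.1 FPKM) was 0.26. It was 0.44 over the 2135 loci that are not nuclear protein-coding, 261 of them listed, and 0.26 over the 22037 that are. The unlisted loci are all tied at 0 events, which limits how high these Spearman values can be. Loci are not replicates, and no p is given. Among the 653 of these loci listed by both mock libraries the Spearman correlation was 0.02. The 0.44 pools unlike RNA classes. Within single classes the correlation was 0.06 over 33 small nucleolar RNA loci and -0.04 over 32 microRNA loci. It was 0.06 over the 88 chloroplast loci that are neither ribosomal nor transfer RNA.

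**Figure D4:**
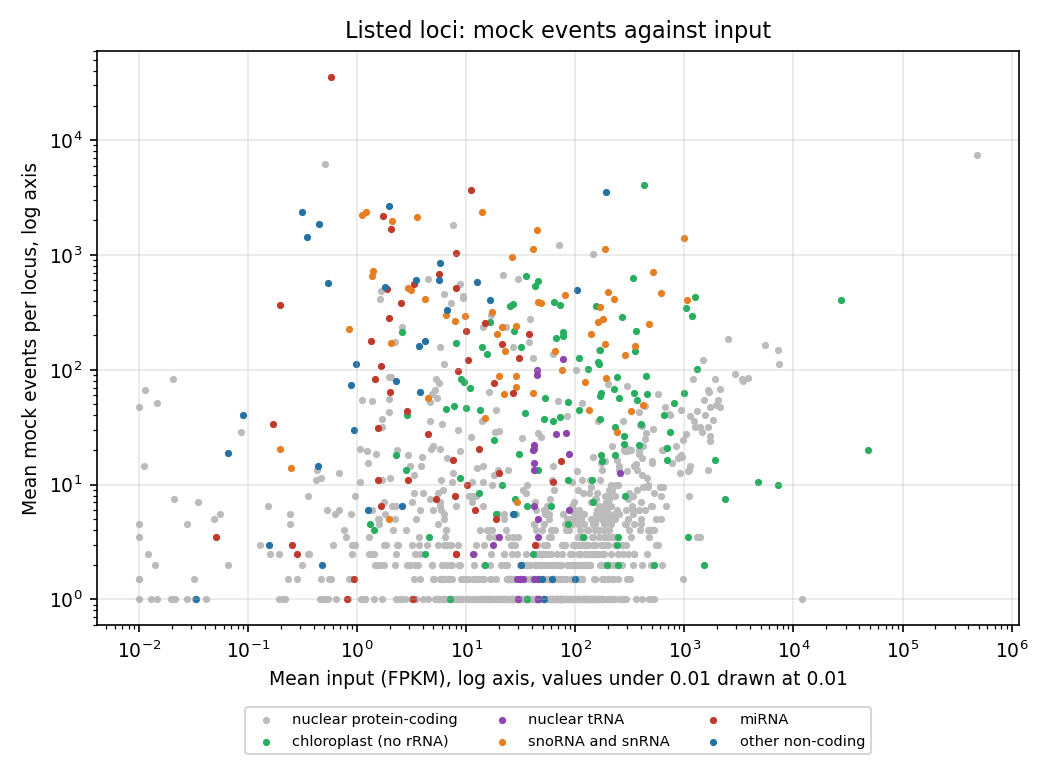
Mean mock events per locus against mean input in FPKM, both on log axes, 1 point for each locus listed by either mock library with input above 0, coloured by RNA class. MicroRNA and small nuclear or nucleolar RNA (red, orange) reach high events at low input, while most protein-coding loci (grey) have few events; ribosomal RNA, mitochondrial loci, pseudogenes and loci listed at 0 FPKM are not drawn.

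Among protein-coding mRNAs, being listed at all went with high abundance. Over 26705 loci, 1098 (4.11%) were listed by either mock library and 451 (1.69%) by both. The median input was 117.6 FPKM for those listed by both and 2.65 FPKM for all. When the 22037 loci with input above 0 were put in 10 bins, 0.681% (0.413 to 1.12) of the lowest bin were listed by either library. The next bins rose to 2.04% in the eighth and 5.17% (4.32 to 6.18) in the ninth. In the highest bin, from 27.2 FPKM up, 30.7% (28.8 to 32.6) were listed, and 30.05% through unmatched sites. Of the 100 protein-coding loci of highest input, 96 were listed by either library and 83 by both, and of the top 1000, 516 were listed. Over all loci with input the highest bin gave 33.7%, against 23.7% with mock 1 alone and 27.6% with mock 2 alone.

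**Figure D5:**
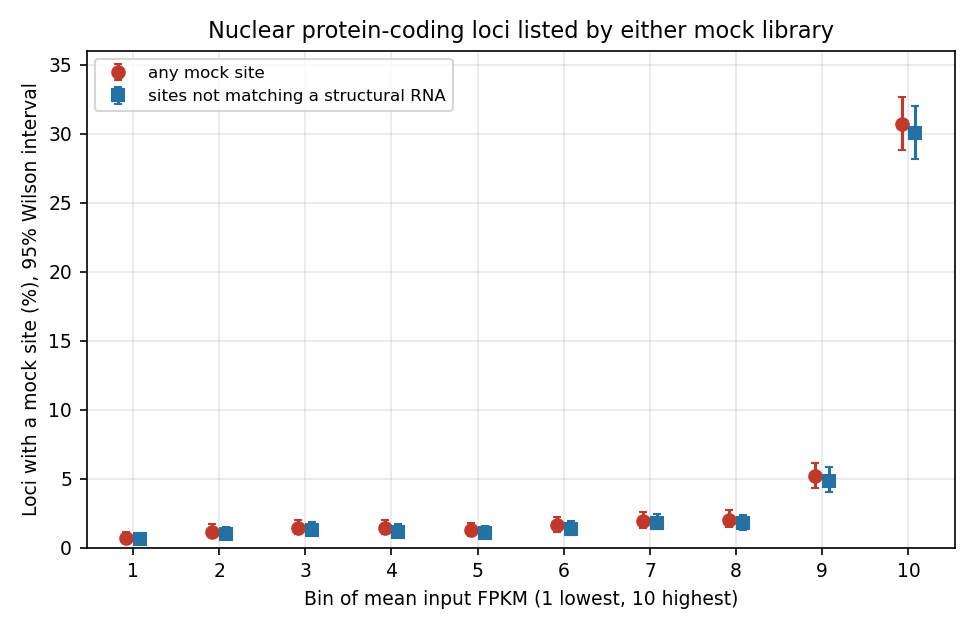
Share of nuclear protein-coding loci with a mock site in either library, in percent with 95% Wilson intervals for counting error only, in 10 bins of mean input FPKM from lowest to highest. Shares through any site (red) and through unmatched sites (blue) lie at 2.04% or less up to bin 8 and near 5% in bin 9. They reach 30.7% and 30.05% in bin 10.

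Within the listed protein-coding loci, the level of events was tied to input only in part. For the 437 loci listed by both with input above 0, the Spearman correlation was 0.16 with all sites. With unmatched sites it was 0.32 over 387 loci. FA-CLIP events had 0.65 over the 437 and 0.76 over 22037 loci. Of these 22037, FA-CLIP had events at 11969 and the mock at 1046. Loci without events are tied at 0, so mock and FA-CLIP correlations over the 22037 are not alike measures. At the top of the range the mock had the higher value. Over the 41 loci of at least 1000 FPKM other than AT2G01021, the correlation was 0.50 for unmatched mock events and 0.24 for FA-CLIP. These 4 libraries share the kit and the input they are set against, and the difference between correlations was not tested. Of those 41 loci, 38 were listed by both mock libraries. The 41 loci had a median of 23.5 events in unmatched sites per 1000 FPKM, and the highest was 81 for RCA, the Rubisco activase.

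The 2 gene lists of highest median input were also the most completely listed. The median input was 1120 FPKM for nuclear photosystem and antenna genes, and 42 of 52 were listed by either and 40 by both, against 4.11% and 1.69% of all protein-coding loci. LHCA4, an antenna protein of photosystem I, had 167 and 207 events at 2664 and 2338 FPKM. CAB1, an antenna protein of photosystem II, had 95 and 130 events at 7993 and 6770 FPKM. All 5 Rubisco small subunit and activase genes were listed by both. RBCS1A had 144 and 183 events, and RCA had 109 and 133. Ribosomal protein genes, with a median of 69.1 FPKM, were listed by either in 83 of 314 and by both in 38 of 314. Of those 38, 30 were listed by both through unmatched sites. Elongation factor genes were listed by either in 9 of 27 and ubiquitin genes in 8 of 13. Glycine-rich RNA-binding protein genes were listed in 4 of 12, led by GRP7, a clock-regulated protein, with 30 and 42 events at a mean of 274.4 FPKM. Tubulin and actin genes were listed in 6 of 26, histone genes in 7 of 46 and heat shock protein genes in 1 of 48, at medians of 31.1, 19 and 3.68 FPKM. The lists differ in transcript length and input, and no list was tested.

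High input alone did not bring a locus into the mock lists. AT3G08520, a ribosomal protein L41 gene, had the sixth highest input of all protein-coding loci, at 3996 and 3852 FPKM, and no site in either mock library. Its transcript is 246 nt long, and FA-CLIP gave it 6 and 6 events. The metallothionein MT1B followed at 1361 and 1134 FPKM, and another L41 gene, AT2G40205, at 658.3 and 702.9 FPKM. GASA1, a gibberellin-responsive peptide, DR4, a drought-repressed gene, and the cell wall extensin EXT4 had 394.3, 366.5 and 300.7 FPKM on average. The ribosomal protein genes AT4G15000 (L27e) and AT4G39200 (S25) were unlisted too, at 304.9 and 289.3 FPKM, and in FA-CLIP they had 159 and 467, and 562 and 605 events. AT1G51402 and AT1G67785, both uncharacterized, had 425.4 and 350.1 FPKM. Most of these unlisted loci had few events in FA-CLIP as well. They were 0 and 2 for MT1B, 22 and 23 for AT2G40205, 17 and 26 for GASA1, and 11 and 3 for DR4. EXT4 had 13 and 13, AT1G67785 had 12 and 10, and AT1G51402 had none.

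Events per FPKM spanned a wide range among 417 protein-coding loci of at least 1 FPKM listed by both. The median was 0.0502 events per FPKM, with the 5th percentile at 0.0107 and the 95th at 17.96. The highest were AT3G06435 at 292.3, NGA3 at 253.7 and PRIN2 at 240.2 events per FPKM, with mean inputs of 1.65, 1.62 and 7.53 FPKM. AT1G77030 followed at 139.8, and then Cpn60beta4, a chloroplast chaperonin subunit, at 90.7 through small nucleolar RNA sites. The lists label those sites 5' UTR. The largest in mock 1, at chr1:9076289-9076313, lies outside the gene as RefSeq places it, at chr1:9072256-9075350. OPT5, an oligopeptide transporter, had 59 and 51 events in unmatched sites at 1.11 FPKM, or 49.5 per FPKM. AT5G65860 stood at 47.2, and AT1G31835, AT2G31141 and AT2G39850 lay between 53.3 and 73.3. Of these 10 loci, 7 remained among the highest 10 when matched sites were left out. PRIN2, Cpn60beta4 and AT5G65860 had no unmatched sites and had to drop out. Of the rest, only AT1G31835 had any matched sites, so this count was nearly fixed in advance.

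Mock sites also lay elsewhere in mRNAs than FA-CLIP sites. By the labels in the lists, 50.6% and 52.2% of mock protein-coding sites were in coding sequence and 28.8% and 29.5% in 3' UTR. In FA-CLIP 62.3% and 74.1% were in 3' UTR. Mock and FA-CLIP values did not overlap for the 3' UTR.

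Mock and FA-CLIP events were compared per locus to see which RNAs had a larger share of events without the tag. Loci outside the nuclear protein-coding class held 93.8% and 94.4% of mock events and 45.4% and 34% of FA-CLIP events. Shares sum to the same total, so a higher share of such a locus does not show more of its RNA on the beads. In edgeR's quasi-likelihood test over 5136 loci, with total listed events as library size, 155 (3.02%) had a higher share in the mock and 4546 (88.5%) a lower one at a Benjamini-Hochberg adjusted p under 0.05. TMM scaling gave 283 higher calls. Of the lower calls, 3834 had no listed mock event and passed the filter through FA-CLIP alone, so they had to differ. Without FA-CLIP replicate 1 the lower calls were 1501, and without FA-CLIP replicate 2 they were 677 and the higher calls 42. Among small nucleolar RNA loci that passed the filter, 54 of 66 were higher and 0 lower, with a median log2 fold change of 2.17, and without FA-CLIP replicate 2 the higher calls were 14. Nuclear ribosomal RNA had 2 of 4 higher, both 5.8S copies, while the 18S loci AT3G41768 and AT2G01010, at 0.59 and 0.41, did not pass (edgeR adjusted p = 0.412 and 0.569). The 5.8S calls were lost without mock replicate 2 (edgeR adjusted p = 0.119 for AT3G41979 and 0.232 for AT2G01020), and that of AT2G01020 also without mock replicate 1 (0.0742). Small nuclear RNA had 6 of 12 higher, chloroplast ribosomal RNA 7 of 8, microRNA 12 of 60 with 1 lower, and nuclear transfer RNA 18 of 180 with 8 lower. The chloroplast ribosomal RNA calls were 2 without mock replicate 2, and the microRNA calls were 3 without FA-CLIP replicate 2. The transfer RNA median was 0.20, and turned to -0.17 without the filter and to -0.08 without mock replicate 1. Of 4621 protein-coding loci, 36 were higher and 4502 lower.

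Single loci followed the same pattern. ATMG01390 had 3871 and 6859 events in the mock and 658 and 738 in FA-CLIP, a log2 fold change of 3.51 (SE 0.72, edgeR adjusted p = 1.309e-05). PRIN2 had 640 and 91 events in FA-CLIP, a log2 fold change of 2.96 (SE 0.74, edgeR adjusted p = 2.454e-04). NGA3, with 0 and 5 events in FA-CLIP, passed the filter through the mock alone. Its fitted log2 fold change of 7.92 rests on those 5 events, and was 6.92 without FA-CLIP replicate 1 and 12 without FA-CLIP replicate 2, so it gives no size of the difference. MIR398a was at 1.97 (SE 0.70, edgeR adjusted p = 0.00763), a call lost without mock replicate 2 (adjusted p = 0.0557). AT1G09110, the leading tRNA-Glu, was at 1.30 (SE 0.70, edgeR adjusted p = 0.0732) and did not pass. PSBA, at 0.27 (SE 0.66, edgeR adjusted p = 0.699), did not pass either. Of the 155 higher calls, 5 had no FA-CLIP event in either library and 22 had none in at least 1 of them. The 5 passed the filter through the mock alone and had to differ. Among them, AT2G25120, a BAH-domain protein, had 94 and 73 events and SPL2, a transcription factor, 69 and 64. The tRNA-Gly AT1G06860, the tRNA-Pro AT4G36245 and the phospholipase gene PLDP1 had 10 to 16 events in either library and none listed in FA-CLIP, and their calls were lost without either FA-CLIP replicate. The small nucleolar RNA AT2G43141 had 239 and 238 events against 4 and 0. The 10 loci with the largest lower fold changes had no mock events and passed the filter through FA-CLIP alone, so nothing is read from them. AT1G18540, a ribosomal protein L6 gene, is an example with 751 and 1102 FA-CLIP events at 126.7 FPKM of input. Since the labels name no separate cultures, these p-values measure the spread between these libraries, which may be technical.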

How the data were processed

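Formaldehyde crosslinked RNA from Arabidopsis seedlings was measured in 2 mock, 2 input and 2 FA-CLIP libraries. Per the submitters' processing notes, reads were trimmed or mapped with cutadapt and Bowtie on TAIR10, without versions. Neither site caller, counter, annotation nor the treatment of multiply mapping reads is stated in them. Each deposited list of precipitated sites holds, per the file headers, a count of conversion events for each site, from 2 upwards and not scaled. The kind of conversion is not stated. The deposited input tables hold 1 value per locus, taken as FPKM from the header layout and the values. Their depth, and whether they were scaled to each other, are unknown. Such scaling would move input levels but not the rank of loci within a library.

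A site listed under several transcripts of a locus was counted once, and events were summed per locus. Classes, positions and sequences came from RefSeq (TAIR10.1), whose nuclear and chloroplast coordinates equal those of TAIR10. The mitochondrial sequence differs and was not used for coordinates. Sites of protein-coding loci were called structural where they lie in an annotated transfer, nucleolar, nuclear or micro RNA on the same strand, or share at least 18 identical bases with one within 15 nt on each side. Loci named are the 20 with the most mock events, the 15 protein-coding loci with the most, the 10 with the highest ratio to input (at least 1 FPKM, both mock libraries), the 10 of highest input without a site, the 10 largest folds in each direction, and members of fixed gene lists. Other loci of a class are named as its leading ones, a choice made after their values were seen. The members and lists were chosen with earlier results of these data known.

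Mock and FA-CLIP were compared with edgeR 4.0.16 in R 4.3.3 (quasi-likelihood test, filterByExpr, total events as library size, Benjamini-Hochberg over 5136 loci, threshold 0.05). On simulated counts of 5136 loci with 200 changed, up and down alike, it found 95% of 8-fold and 100% of 64-fold changes, with 9 false calls. The data had 4546 lower and 155 higher calls, so these rates do not carry over to them. Each SE of a log2 fold change is its absolute value divided by the square root of the F statistic of that test. Shares used an exact two-sided permutation test. Python 3.11.15, numpy 2.4.6, pandas 2.3.3, scipy 1.17.1, statsmodels 0.14.6 and matplotlib 3.10.9 were used. Intervals are 95% Wilson intervals. Alternatives covered scaling, DESeq2 1.42.0, filters, pseudocounts, overlap and leaving out each library. Leaving out structural sites was added after seeing the data.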

Additional observations from a re-analysis of the deposited data

How the results depend on the processing

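The Spearman correlation of mock events with input, 0.26 over all loci, was 0.29 for loci of at least 1 FPKM, 0.0173 for loci listed by both mock libraries and 0.13 for sites with more events than the library median. It ranged from 0.21 to 0.26 with 1 library left out. Pearson's r went from 0.26 to 0.22 with pseudocounts of 10 events and 1 FPKM. Counted as sites instead of events, the mean class shares were 2.19% for nuclear rRNA, 8.62% for nuclear tRNA, 3.51% for miRNA, 25.7% for the chloroplast and 46.1% for protein-coding loci. With 1 mock library left out these classes ranged from 35.08 to 39.9%, 11.24 to 13.89%, 16.65 to 17.54%, 16.66 to 17.35% and 5.56 to 6.23%. Without AT2G01021 the protein-coding share was 4.70%. The share of loci listed in the highest input bin, 33.7%, was 10.6% for loci of 10 or more events and 17.6% for both libraries, and 23.71 to 27.55% with 1 mock library left out. Replicate overlap, 67.5%, was 48.05% where the overlap had to cover 50% of each site and 81.1% for sites above the median events. Of the 10 highest ratios to input, 7 remained per kb of transcript and 7 without structural sites. The count without structural sites was nearly fixed in advance, as only AT1G31835 had sites of both kinds.

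In the mock against FA-CLIP test, TMM gave 283 higher calls in place of 155, and 7958 loci were lower without the filter in place of 4546, since more loci were tested. TMM gave 4502 lower calls, and DESeq2 189 higher and 4487 lower. With 1 library left out the higher calls ranged from 42 to 136 and the lower from 677 to 6032. TMM and DESeq2 moved the median of all loci by 0.27 and 1.13 on the log2 scale, and with them the median of chloroplast transcripts other than rRNA and tRNA, -0.27, became 0.54 and 0.04. The replicate block gave 105 higher and 4424 lower calls. Differences between replicates 1 and 2 correlated at 0.0385 between mock and FA-CLIP over 5136 loci. Of these loci, 3834 had no listed event in either mock library, so this value cannot tell whether the numbers pair the libraries. For 42 named loci, 332 single values were compared, and 258 kept their call, 48 passed only under the alternative, 26 lost it, all with a library left out, and 0 reversed. Causes were not tested. With 2 libraries a group, listed sites of at least 2 events and unknown input depth limit what can be seen for rare transcripts.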
